A study of Mus musculus with 14 samples.

Results

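The insulin and AKT signalling core was described by 10 genes chosen by symbol, from the receptors at the cell surface (Insr, Igf1r) through the adaptors (Irs1, Irs2), the lipid kinase (Pik3ca) and the AKT kinases (Akt1, Akt2) to the targets of AKT (Gsk3a, Gsk3b, Foxo1). Each gene was represented by its transcript with the highest mean level. All 10 were among the 13219 symbols measured in the AAV experiment, whereas 2 of the 10, Akt2 and Gsk3a, were among the 1230 symbols listed for KO against WT.

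Whole hearts of male C57BL/6J mice were analysed by RNA sequencing. All mice had eaten a high-fat diet (HFD), with 60% of the energy from fat, for 12 weeks, begun at 7 to 9 weeks of age, with a fast of 6 h before death. The KO group held 4 hearts of mice homozygous for the CTRP9 knock-out, and the WT group 3 hearts of wild-type littermates. The AAV-CTRP9 group held 4 hearts and the AAV-Luc group 3 hearts, labelled as wild-type in genotype, of mice injected into the tail vein at the same age with 1e12 vector genomes of AAV9. The vector carried the reading frame of mouse C1qtnf9, which encodes the secreted glycoprotein CTRP9, or the luciferase of Renilla, under a troponin T promoter, so that both were directed to cardiomyocytes. No chow-fed mice were analysed here, and all 4 groups had been given the HFD. The comparisons ask whether the loss or the gain of CTRP9 in the heart goes with other transcript levels of the pathway through which insulin acts.

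Insulin and IGF1 bind receptor tyrosine kinases, which phosphorylate IRS adaptor proteins, and these recruit PI3K to the membrane. The lipid made by PI3K brings AKT to the membrane, where it is activated, and AKT then phosphorylates and restrains GSK3 and the FOXO transcription factors. In heart muscle this pathway is known for the control of glucose uptake, glycogen synthesis and growth, and most of its control acts through phosphorylation, which transcript levels do not show.

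The AAV groups were taken from the treatment labels, since the 3 AAV-Luc samples carry titles that begin with CTRP9 while their descriptions name Luc. C1qtnf9 was as the genotype and treatment labels state. It had 0 to 2 reads in KO hearts and 481 to 498 reads in WT hearts. In AAV-CTRP9 hearts it had 44.3 to 109 reads per 1000000 (CPM), against 16.1 to 26.3 CPM in AAV-Luc hearts. Reads of the vector and of the mouse gene cannot be told apart. All 4 AAV-CTRP9 hearts were above all 3 AAV-Luc hearts (limma log2 fold change 1.73, standard error 0.26), yet the adjusted p of C1qtnf9 was 0.106 with all hearts, against 0.000847 without the AAV-Luc heart Luc_614 and 0.00159 from DESeq2. A gene that the design set apart by this much thus missed the threshold of the limma test across all genes. Library totals were 23626917 to 30262264 reads (as scaled by the authors) in the AAV experiment and 14978278 to 18959587 reads in KO and WT hearts. Cardiomyocyte markers were all present (9 of 9), with summed levels of 25910 to 26620 CPM in AAV-CTRP9 hearts and 22920 to 25060 CPM in AAV-Luc hearts, and the 6 adipocyte and 6 skeletal muscle markers had no row in the table used here. The AAV-Luc heart Luc_614 stood apart from the rest: transcripts rich in G and C were high in it, with a Spearman correlation of 0.52 across genes between a gene's deviation and its GC content, against -0.27 to -0.11 in the other 6 hearts. Results that rest on Luc_614 are therefore given with and without it.

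Scaled to transcript length, Gsk3a and Akt1 were the most abundant transcripts of the 10 in the AAV experiment, and the adaptors Irs1 and Irs2 were at the low end. Gsk3a averaged 25.7 ± 0.866 CPM per kilobase in AAV-CTRP9 hearts and 27.9 ± 1.78 CPM per kilobase in AAV-Luc hearts (SD, n = 4 and n = 3). Akt1 averaged 25.3 ± 1.10 CPM per kilobase in AAV-CTRP9 hearts and 26.3 ± 3.23 CPM per kilobase in AAV-Luc hearts, and the ranges of these genes overlapped over the 7 hearts. Akt2, the AKT isoform best known for insulin-stimulated glucose uptake, followed with 11.4 ± 0.418 CPM per kilobase in AAV-CTRP9 hearts and 11.1 ± 0.937 CPM per kilobase in AAV-Luc hearts. With the transcripts kept, the length-scaled level of Akt1 was 2.16 to 2.57 times that of Akt2 in each of the 7 hearts. The place of Akt2 depended on its row: the kept row has 4544 bases and had 46.4 to 54.8 CPM. Another row of 2865 bases had 44.95 to 53.2 CPM, and that of 1392 bases had 29.1 to 37.2 CPM. Scaled to those shorter lengths Akt2 would stand higher. Then came Insr with a mean of 6.05 CPM per kilobase over the 7 hearts, Gsk3b with 3.95 and Pik3ca with 3.03. Foxo1 had 2.42 CPM per kilobase, Igf1r 1.47, Irs2 1.45 and Irs1 1.17. The place of Irs2 rested on 2 hearts, Luc_615 and Luc_624: it lay above Irs1 in 3 of the 7 hearts, and averaged 0.9996 CPM per kilobase in AAV-CTRP9 hearts, where Irs1 averaged 1.18. The neighbours in this order whose ranges overlapped over the 7 hearts were Gsk3a and Akt1, Pik3ca and Foxo1, Igf1r and Irs2, and Irs2 and Irs1. The ranges of the other neighbours did not overlap.

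**Figure D1:**
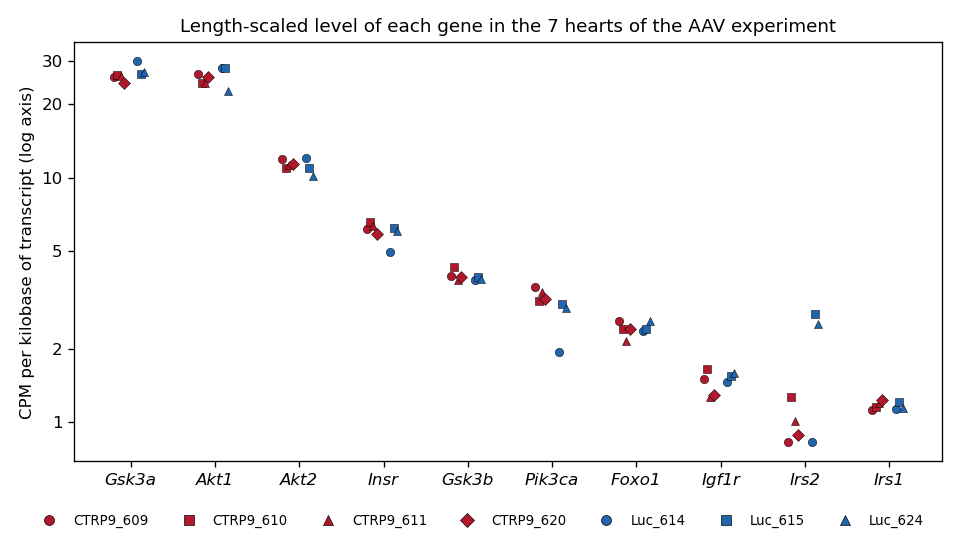
Level of each of the 10 genes in CPM per kilobase of transcript, on a log axis, with 1 point for each heart of the AAV experiment (AAV-CTRP9 in red at the left of each gene, AAV-Luc in blue). Gsk3a and Akt1 lie together at the top with means of 26.6 and 25.8 over the 7 hearts, and Irs2 spreads more widely than the rest, from 0.8291 to 2.78.

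Between AAV-CTRP9 and AAV-Luc hearts, no gene of the core passed the test across all genes (limma, adjusted p under 0.05: 0 of 10, where 2 of 13219 symbols or 0.0151% passed). The tests on recovered reads likewise called 0 of 10, where DESeq2 called 0.461% of all symbols, edgeR's quasi-likelihood test 0.0151% and its likelihood ratio test 0.613%. At an unadjusted p under 0.05, 2 of the 10 were found by limma, Irs2 lower and Pik3ca higher, where 8.67% of all symbols reached it. Of 16 alternatives, 8 found 2 genes at this level, 5 found 1 and 3 found 0, namely limma without the intensity trend and limma without CTRP9_609 or without CTRP9_611. Irs2 and Pik3ca were each found by 10 of the 16, and Akt1 by 1. For 8 of the 10 genes the log2 fold change lay within 0.2 of 0, and their hearts overlapped between the groups for all of these but Gsk3a. Hearts did not overlap for 2 of the 10, Pik3ca and Gsk3a, where 9.02% of all symbols showed no overlap. The median log2 fold change was -0.01 over the 10 genes and 0.03 over all symbols.

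Neither receptor differed beyond the spread between hearts. Insr, the insulin receptor (chromosome 8 of GRCm38, 3122061 to 3279617, minus strand), had 57.8, 61.8, 59.3 and 55.2 CPM in AAV-CTRP9 hearts, against 46.4, 58.6 and 56.8 CPM in AAV-Luc hearts. The AAV-Luc heart Luc_614 was the lowest of the 7, and the other AAV-Luc hearts lay among the AAV-CTRP9 hearts. Its log2 fold change was 0.12 (standard error 0.09, limma adjusted p = 0.717) with all hearts and 0.02 without Luc_614. Igf1r, the receptor of insulin-like growth factor 1 (chromosome 7, 67952827 to 68233668, plus strand), had 17.2, 18.8, 14.5 and 14.7 CPM in AAV-CTRP9 hearts, against 16.7, 17.7 and 18.1 CPM in AAV-Luc hearts. Its AAV-CTRP9 hearts lay within and on both sides of the AAV-Luc hearts, and limma gave a log2 fold change of -0.11 ± 0.11 (standard error) with an adjusted p of 0.799.

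**Figure D2:**
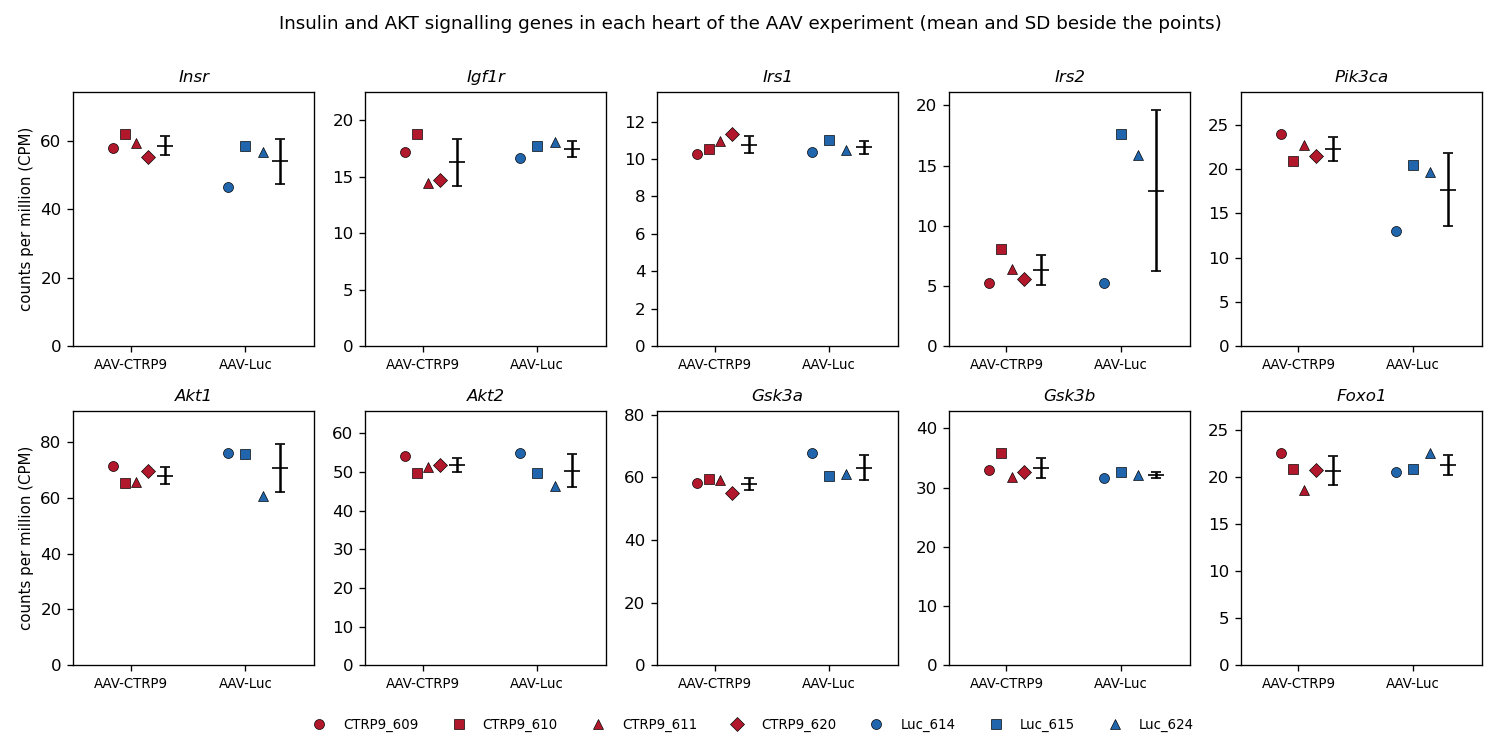
Level in CPM of each of the 10 genes in the 4 AAV-CTRP9 hearts (red, left) and the 3 AAV-Luc hearts (blue, right), with 1 marker shape for each heart of a group and the mean and SD beside the points. Irs2 is high in Luc_615 and Luc_624, at 17.6 and 15.9 CPM, and between 5.24 and 8.03 CPM in the other 5 hearts.

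Of the adaptors, Irs1 was steady and Irs2 was the most variable gene of the core. Irs1, the adaptor of the insulin receptor best known in muscle (chromosome 1, 82233101 to 82291416, minus strand), had 10.2, 10.6, 10.98 and 11.3 CPM in AAV-CTRP9 hearts, against 10.4, 11.03 and 10.5 CPM in AAV-Luc hearts. Its highest heart was 1.11 times its lowest. The groups overlapped, and limma gave a log2 fold change of 0.02 ± 0.09 (standard error) with an adjusted p of 0.969. Irs2, an adaptor whose gene is known in liver as one that FOXO activates and insulin silences (chromosome 8, 10984681 to 11008458, minus strand), had 5.24, 8.03, 6.42 and 5.59 CPM in AAV-CTRP9 hearts, against 5.26 CPM in Luc_614, 17.6 CPM in Luc_615 and 15.9 CPM in Luc_624. The AAV-Luc hearts Luc_615 and Luc_624 were thus above all AAV-CTRP9 hearts, while Luc_614 was within them. The reads behind these values were 123 to 226 in AAV-CTRP9 hearts and 158, 492 and 418 in AAV-Luc hearts. The coefficient of variation of Irs2 over the 7 hearts was 57.97%, above that of 99.5% of all symbols, whereas it was 3.77% for Irs1 and had a median of 7.24% over the 10 genes.

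Irs2 averaged 6.32 ± 1.25 CPM in AAV-CTRP9 hearts and 12.9 ± 6.69 CPM in AAV-Luc hearts (SD, n = 4 and n = 3), and limma gave a log2 fold change of -0.87 ± 0.35 (standard error) with an adjusted p of 0.557. The 2-sided exact permutation test gave p = 0.171, where the smallest value that 35 splits allow is 0.0286. Without Luc_614 the log2 fold change of Irs2 was -1.42 (standard error 0.15) and the limma adjusted p was 0.000847, and Irs2 was then 1 of 150 symbols called of 13219 (1.13%). That fit rests on 2 AAV-Luc hearts. Over the other 15 alternatives, among them -0.55 without Luc_615, Irs2 stayed lower in AAV-CTRP9, with log2 fold changes of -1.05 to -0.55 and adjusted p of 0.149 to 0.838. The call of Irs2 therefore turned on whether Luc_614 was kept. With trends in GC content and length removed from each library, Luc_614 lay 1.76 below the other AAV-Luc hearts on the log2 scale. As deposited it lay 1.67 below them. The cause of this gap within the AAV-Luc group was not tested. Erythroid markers (5 of 6 measured) were also highest in Luc_615 and Luc_624, with summed levels of 118 to 184 CPM in AAV-CTRP9 hearts against 139 CPM in Luc_614, 272 CPM in Luc_615 and 724 CPM in Luc_624. Leukocyte and macrophage markers (8 of 8 measured) summed to 105 to 151 CPM in AAV-CTRP9 hearts and 165 to 216 CPM in AAV-Luc hearts. The part of blood cells and leukocytes in the Irs2 values was not tested, and in whole hearts fewer cells of a type and less RNA per cell cannot be told apart.

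The promoters of both adaptors are shown because Irs2 varied most and Irs1 least among the 10. The sequences are those of RefSeq on GRCm38.p6, 250 bases before to 50 after the annotated start, and were matched for 9 of the 10 genes, Insr being the exception. Capitals mark matches on either strand to the E-box CACGTG, the GC box GGGCGG and the CCAAT box CCAAT. The Irs1 window is chr1:82291390-82291689 and the Irs2 window chr8:11008880-11009179, both on the minus strand. The Irs2 window lies wholly upstream of the GENCODE span of the gene given above, whose minus-strand start is 11008458. Its positions are therefore relative to the RefSeq start only.
Irs2: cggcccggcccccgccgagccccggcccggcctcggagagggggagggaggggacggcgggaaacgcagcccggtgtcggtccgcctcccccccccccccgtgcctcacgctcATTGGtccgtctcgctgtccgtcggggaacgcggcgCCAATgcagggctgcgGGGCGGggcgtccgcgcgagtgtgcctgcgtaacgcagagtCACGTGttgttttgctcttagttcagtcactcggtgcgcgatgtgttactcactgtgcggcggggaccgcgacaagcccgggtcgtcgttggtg
Irs1: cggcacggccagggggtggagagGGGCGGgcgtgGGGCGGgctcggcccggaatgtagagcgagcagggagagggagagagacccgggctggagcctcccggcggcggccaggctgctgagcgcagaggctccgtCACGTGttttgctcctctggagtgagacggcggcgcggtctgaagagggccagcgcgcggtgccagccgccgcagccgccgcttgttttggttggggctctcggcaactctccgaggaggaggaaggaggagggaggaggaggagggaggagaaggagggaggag
Each held 1 E-box, at -44 from the RefSeq start in Irs2 and at -115 in Irs1. No other promoter of the 9 genes held an E-box, where 7.15% of 32851 promoters of this length do. Irs2 also held 2 CCAAT boxes and 1 GC box, and Irs1 2 GC boxes. The exact letters GTAAACA, a forkhead motif that FOXO proteins are known to bind, were not in either window. Other sequences that FOXO proteins may bind were not searched for. Of the 9 genes GTAAACA was in 1 promoter of Akt1 only, where 3.65% of all promoters hold it. The motif TGACGTCA of the cyclic AMP response was in 0 of the 9 genes' windows, where 1.79% of all promoters hold it.

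Every AAV-CTRP9 heart had more Pik3ca than every AAV-Luc heart, but the difference did not pass the test across all genes. This gene of the catalytic subunit p110-alpha of PI3K (chromosome 3, 32397671 to 32468486, plus strand) had 23.9, 21.0, 22.7 and 21.4 CPM in AAV-CTRP9 hearts, against 12.96, 20.4 and 19.7 CPM in AAV-Luc hearts. All 4 AAV-CTRP9 hearts were above all 3 AAV-Luc hearts, which 4.49% of all symbols also showed, and Luc_614 was far below the rest. Pik3ca averaged 22.3 ± 1.34 CPM in AAV-CTRP9 hearts and 17.7 ± 4.11 CPM in AAV-Luc hearts (SD, n = 4 and n = 3). From limma the log2 fold change was 0.36 ± 0.15 (standard error), with an unadjusted p of 0.0316 and an adjusted p of 0.557, and with an exact permutation p of 0.0286, the smallest that the design allows. Without Luc_614 the log2 fold change was 0.15 (standard error 0.09, limma adjusted p = 0.515), and with trends in GC content and length removed it was 0.22 (standard error 0.08, limma adjusted p = 0.398). Pik3ca had the lowest GC content of the 10 transcripts, 41.5%, and Luc_614 lay 0.63 below the other AAV-Luc hearts on the log2 scale as deposited and 0.12 below them after that correction.

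Neither AKT gene differed beyond the spread between hearts. Akt1, the kinase isoform best known for growth (chromosome 12, 112653821 to 112674884, minus strand), had 71.4, 65.5, 65.7 and 69.9 CPM in AAV-CTRP9 hearts, against 76.0, 75.7 and 60.8 CPM in AAV-Luc hearts. Its AAV-CTRP9 hearts lay between the AAV-Luc hearts, and limma gave a log2 fold change of -0.05 ± 0.09 (standard error) with an adjusted p of 0.900. Akt2 (chromosome 7, 27591552 to 27640826, plus strand) had 54.3, 49.7, 51.4 and 51.9 CPM in AAV-CTRP9 hearts, against 54.8, 49.9 and 46.4 CPM in AAV-Luc hearts. The groups overlapped here too, and limma gave a log2 fold change of 0.04 ± 0.08 (standard error) with an adjusted p of 0.901. The 4 other transcript rows of Akt2 and the 1 other row of Akt1 had log2 fold changes of 0.03 to 0.04 and of -0.06, but rows of a gene share most of their reads.

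The GSK3 genes, kinases that hold back glycogen synthesis until AKT phosphorylates them, differed in whether the groups overlapped. Gsk3a (chromosome 7, 25228258 to 25237851, minus strand) had 58.4, 59.4, 59.1 and 55.2 CPM in AAV-CTRP9 hearts, against 67.7, 60.3 and 61.2 CPM in AAV-Luc hearts. All 4 AAV-CTRP9 hearts were below all 3 AAV-Luc hearts, as for 4.54% of all symbols, and CTRP9_610 was within 1 CPM of Luc_615. The log2 fold change of Gsk3a was -0.12 (standard error 0.07, limma adjusted p = 0.661) and the exact permutation p was 0.0286, again the smallest possible. Luc_614 was the highest heart. Without it the log2 fold change was -0.07 and with trends in GC content and length removed it was -0.06, and Gsk3a had the highest GC content of the 10 transcripts, 59.8%. Gsk3b, the better studied of the kinases (chromosome 16, 38089001 to 38246084, plus strand), had 33.1, 35.8, 31.9 and 32.7 CPM in AAV-CTRP9 hearts, against 31.7, 32.7 and 32.1 CPM in AAV-Luc hearts. Its groups overlapped, and limma gave a log2 fold change of 0.05 ± 0.08 (standard error) with an adjusted p of 0.874, and its other transcript row was at -0.14 ± 0.10 on the same scale.

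Foxo1, a transcription factor that AKT keeps out of the nucleus (chromosome 3, 52268336 to 52353221, plus strand), had 22.6, 20.8, 18.7 and 20.8 CPM in AAV-CTRP9 hearts, against 20.5, 20.8 and 22.6 CPM in AAV-Luc hearts. The groups overlapped, and limma gave a log2 fold change of -0.04 ± 0.09 (standard error) with an adjusted p of 0.920. Exons of Foxo1, Gsk3a, Irs1 and Irs2 overlap exons of genes on the opposite strand by 674, 820, 2822 and 162 bases, and since the use of strand in counting is not given, reads of the partners cannot be told apart. The partner of Gsk3a, 9130221H12Rik, had 37.1 to 41.2 CPM in AAV-CTRP9 hearts and 41.4 to 46.1 CPM in AAV-Luc hearts, so that its groups did not overlap either, with a log2 fold change of -0.16 (limma adjusted p = 0.591). The partners of Irs1 and Foxo1 (Gm9747 and Gm20402) were under 5 CPM in every heart and their groups overlapped, and that of Irs2 had no row in the table used here.

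**Figure D3:**
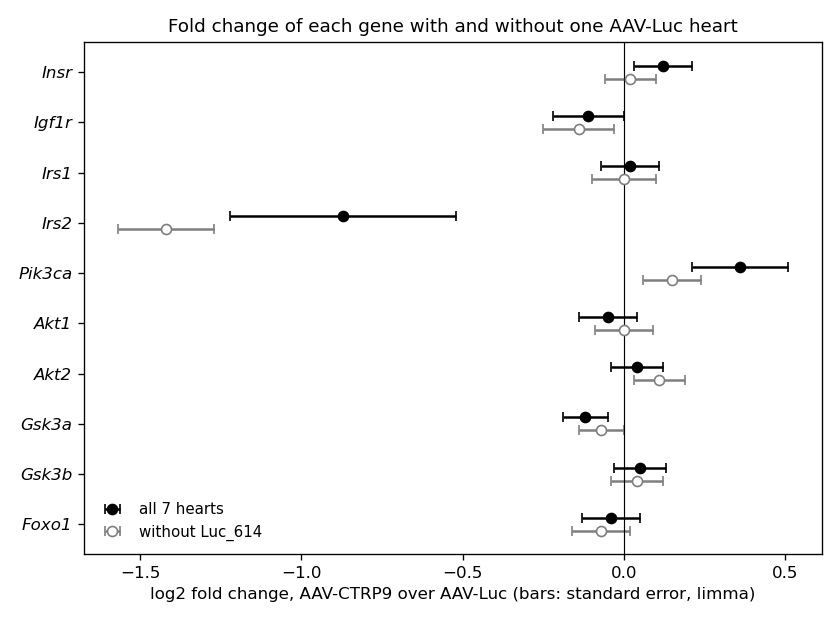
Log2 fold change of AAV-CTRP9 over AAV-Luc for each of the 10 genes from limma, with bars for the standard error, over all 7 hearts (filled) and without the AAV-Luc heart Luc_614 (open). Irs2 lies at -0.87 with all hearts and at -1.42 without that heart, and Pik3ca at 0.36 and 0.15.

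In the rest of the pathway, no gene passed the test between AAV-CTRP9 and AAV-Luc hearts. Of 91 further symbols of ligands, adaptors, PI3K subunits, AKT regulators, AKT substrates and FOXO targets, 80 were measured and 0 had a limma adjusted p under 0.05. At an unadjusted p under 0.05, 6 were higher and 8 were lower, where 4.30% and 4.36% of all symbols were. The quasi-likelihood test of edgeR also called 0 of the 80. DESeq2 and edgeR's likelihood ratio test called 1, Igfbp4, where they called 0.461% and 0.613% of all symbols. Without Luc_614 limma called 4 of the 80, where it called 1.13% of all symbols. The 4 were Igf1, Igfbp4 and Pdk4 as lower and Trim63 as higher. The median log2 fold change of the 80 was 0.04, against 0.03 for all symbols.

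Among 8 measured ligands and binding proteins, 3 were lower at an unadjusted p under 0.05, where 4.36% of all symbols were. The median log2 fold change of the 8 was -0.21. Igfbp4, a binding protein that holds IGF away from its receptor, had 44.2, 41.7, 38.6 and 38.8 CPM in AAV-CTRP9 hearts, against 57.5, 58.9 and 53.3 CPM in AAV-Luc hearts. The groups did not overlap, as for 4.54% of all symbols with AAV-CTRP9 lower, and Luc_614 was in the middle of its group. The log2 fold change of Igfbp4 was -0.47 (standard error 0.08, limma adjusted p = 0.132), with an adjusted p of 0.00024 from DESeq2, 0.000497 from edgeR's likelihood ratio test and 0.0147 from limma without Luc_614. Igf1, the growth factor ligand of Igf1r, had 6.85, 5.03, 4.596 and 5.23 CPM in AAV-CTRP9 hearts, against 5.56, 9.67 and 8.62 CPM in AAV-Luc hearts. Luc_614 was again among the AAV-CTRP9 hearts, and the log2 fold change was -0.53 (limma adjusted p = 0.529) with it and -0.77 (adjusted p = 0.0206) without it. Igfbp6, another IGF binding protein, had a limma log2 fold change of -0.44 with an adjusted p of 0.398, and its groups did not overlap. Fibroblast markers, of a cell type known to make IGF ligands and binding proteins, summed to 322 to 358 CPM in AAV-CTRP9 hearts and 368 to 424 CPM in AAV-Luc hearts (7 of 7 measured). That gap lay mainly in the collagen genes Col1a1 and Col1a2 (log2 fold changes -0.71 and -0.53). The other 5 markers were a subset taken after the values were seen. They summed to 239.6 to 261 CPM in AAV-CTRP9 hearts and 248 to 268 CPM in AAV-Luc hearts, which overlapped. Most of that sum was Dcn, at 185 to 206 CPM over the 7 hearts, so it says little of the rest. The part of fibroblasts in these values was not tested.

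Of 11 measured receptor adaptors and receptor-level inhibitors, 0 reached an unadjusted p under 0.05 by limma, and their median log2 fold change was 0.00. Of all symbols, 4.30% were higher and 4.36% lower at that level, the shares to set beside each list that follows here. Of 11 other PI3K subunits and lipid phosphatases, 1 was higher and 1 was lower at that level. Pik3cb, the gene of the p110-beta subunit, had 5.50, 6.41, 6.84 and 6.26 CPM in AAV-CTRP9 hearts, against 4.83, 4.604 and 5.35 CPM in AAV-Luc hearts. Its groups did not overlap, as for 4.49% of all symbols with AAV-CTRP9 higher. The log2 fold change of Pik3cb was 0.34 (limma adjusted p = 0.501) with Luc_614 and 0.33 without. Inpp5d, a lipid phosphatase of blood cells, had a log2 fold change of -0.29 (limma adjusted p = 0.574). Of 14 kinases, phosphatases and inhibitors that act on AKT or beside it, 1 was higher at an unadjusted p under 0.05, the AKT phosphatase gene Phlpp1 with a log2 fold change of 0.23 (limma adjusted p = 0.529), and 2 were lower, Trib1 and Sgk1 with -0.32 and -0.34 (limma adjusted p = 0.533 and 0.563). Of 19 AKT substrates and mTORC1 genes, 3 were higher at that level and 0 lower: Eif4e, Bad and Tbc1d4 had log2 fold changes of 0.27, 0.24 and 0.28 (limma adjusted p = 0.465, 0.559 and 0.559). Without Luc_614, which had the lowest level of Tbc1d4, the log2 fold change of Tbc1d4 was 0.12, while Eif4e and Bad were at 0.29 and 0.28.

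Genes known as FOXO targets went both ways. Of 17 measured, 1 was higher and 2 were lower at an unadjusted p under 0.05 by limma, where 4.30% and 4.36% of all symbols were. A log2 fold change above 0 was found for 12 of the 17, where 7531 of all 13219 symbols had one. Pdk4, a kinase that shuts off pyruvate dehydrogenase when fat is burnt, had 355, 250, 173 and 191 CPM in AAV-CTRP9 hearts, against 264 CPM in Luc_614, 392 CPM in Luc_615 and 452 CPM in Luc_624. Like Irs2, it was highest in Luc_615 and Luc_624, and its log2 fold change was -0.63 (limma adjusted p = 0.529) with all hearts and -0.86 (adjusted p = 0.0497) without Luc_614. Trim63, the ubiquitin ligase MuRF1 of muscle breakdown, had 67.3, 65.1, 70.5 and 60.7 CPM in AAV-CTRP9 hearts, against 65.4 CPM in Luc_614, 46.3 CPM in Luc_615 and 45.3 CPM in Luc_624. It was lowest in the same pair of hearts in which Irs2 was highest, with a log2 fold change of 0.35 (limma adjusted p = 0.501) with all hearts and 0.52 (adjusted p = 0.00407) without Luc_614. Cdkn1a, the gene of the cell cycle inhibitor p21, had 10.2, 8.39, 14.3 and 31.2 CPM in AAV-CTRP9 hearts, against 35.03, 32.1 and 30.1 CPM in AAV-Luc hearts. The heart CTRP9_620 lay with the AAV-Luc hearts and the other 3 AAV-CTRP9 hearts far below them, and the log2 fold change was -1.21 (standard error 0.35, limma adjusted p = 0.400).

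**Figure D4:**
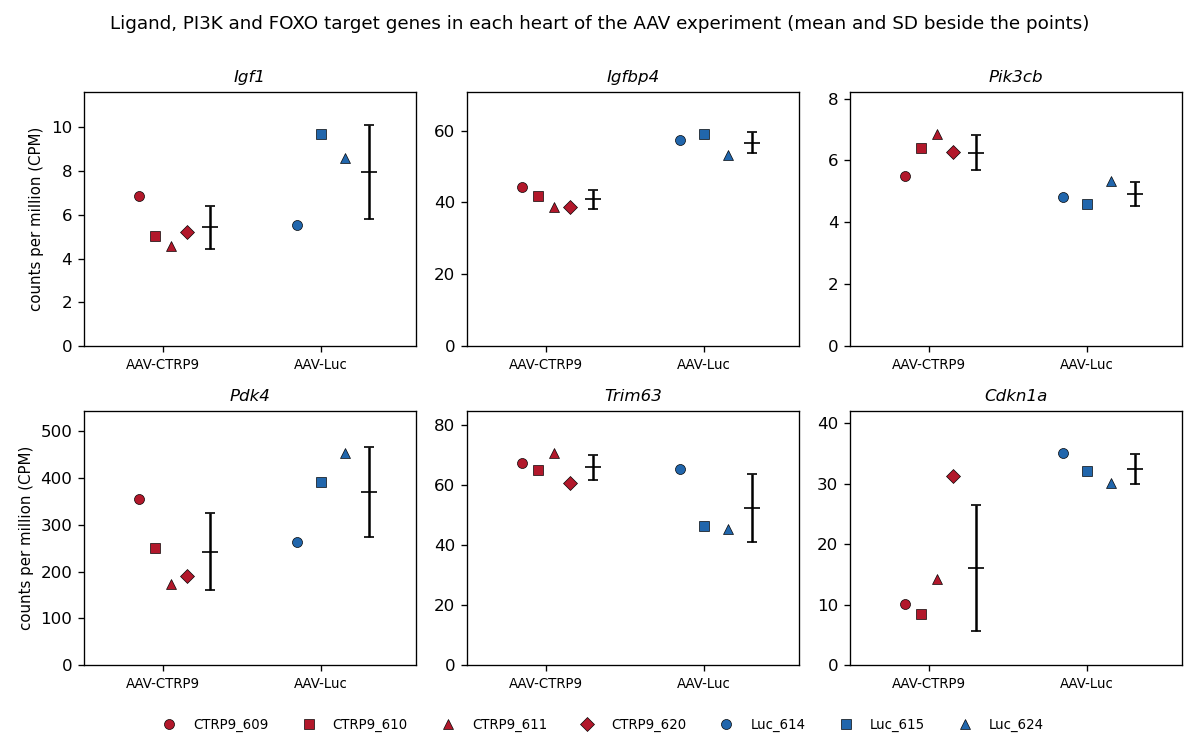
Level in CPM of 6 further genes of the pathway in the 4 AAV-CTRP9 hearts (red, left) and the 3 AAV-Luc hearts (blue, right), with the mean and SD beside the points. Luc_614 (blue circle) lies with the AAV-CTRP9 hearts for Igf1, Pdk4 and Trim63 and with its own group for Igfbp4, Pik3cb and Cdkn1a.

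In the knock-out experiment, Akt2 and Gsk3a were listed, both lower in KO hearts. The table of KO against WT was limited by the authors to transcripts whose unadjusted p was under 0.05 on these hearts, so the values of the listed genes are a description, and the other 8 genes of the core were not analysed here for KO. Of the symbols of the AAV table, 8.67% were listed and 5.33% were listed as lower in KO, beside 2 of 10 for the core. The table does not pair its columns with single mice, so the KO libraries carry the letters A to D and the WT libraries A to C.

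Gsk3a had 1105, 1032, 1206 and 1086 reads in KO hearts, against 1358, 1410 and 1219 reads in WT hearts. Divided by the authors' size factors, these were 1133, 1090, 1055 and 1002 normalized counts in KO hearts, against 1589, 1305 and 1260 normalized counts in WT hearts. All 4 KO hearts were below all 3 WT hearts, as for 38.9% of the listed symbols, and WT A stood highest. Gsk3a averaged 1070 ± 55.2 normalized counts in KO hearts and 1385 ± 178 normalized counts in WT hearts (SD, n = 4 and n = 3), and a refit with edgeR gave a log2 fold change of -0.37 ± 0.09 (standard error). Without WT A it was -0.26, and over all alternatives it was -0.43 to -0.22.

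Akt2 had 961, 731, 1116 and 953 reads in KO hearts, against 1050, 1229 and 908 reads in WT hearts. These were 985, 772, 976 and 880 normalized counts in KO hearts, against 1228, 1138 and 938 normalized counts in WT hearts. The groups overlapped, since WT C lay below KO A and KO C. Akt2 averaged 903 ± 99.6 normalized counts in KO hearts and 1101 ± 148 normalized counts in WT hearts, and the refit gave a log2 fold change of -0.28 ± 0.11 (standard error). Leaving out WT A gave -0.20 and leaving out WT C -0.39, and scaling by library totals gave -0.24. A DESeq2 fit with size factors estimated from the listed symbols gave -0.17, and upper quartile factors of the listed symbols gave -0.13. The scaling moved all listed symbols together. Their median log2 fold change was -0.23 with the authors' factors and -0.18 with library totals. With the authors' factors 61.1% of them were lower in KO. With the factors estimated from the listed symbols, the median was -0.11 (DESeq2) and -0.08 (upper quartile). Such factors pull the median of these selected symbols toward no change, so those fits cannot show how far the values depend on scaling. Both genes lay below the median of the listed symbols under each of these scalings, which their selection as lower in KO largely set in advance. As RPKM computed from the library totals, Gsk3a had 28.6 ± 1.51 in KO hearts and 35.8 ± 3.99 in WT hearts. Akt2 had 11.98 ± 1.27 in KO hearts and 14.1 ± 1.75 in WT hearts. With the transcript kept for each gene, Gsk3a was thus above Akt2 as in the AAV experiment.

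**Figure D5:**
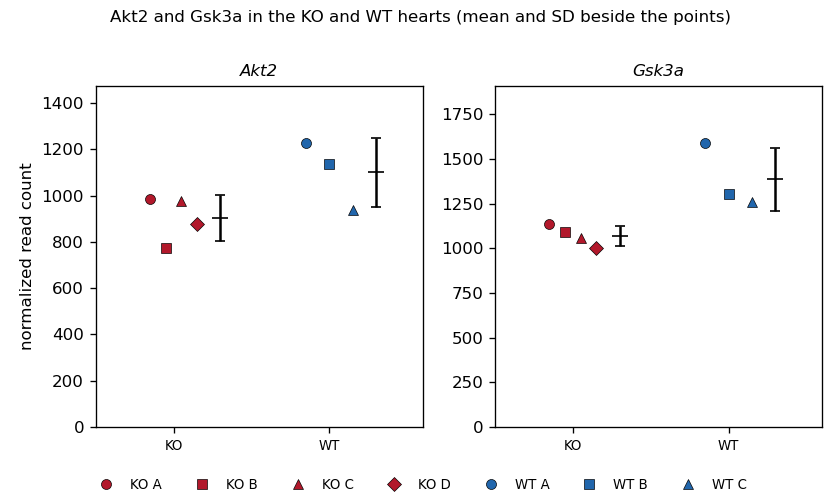
Normalized read counts of Akt2 and Gsk3a in the 4 KO hearts (red, left) and the 3 WT hearts (blue, right), with the mean and SD beside the points. The KO hearts of Gsk3a lie between 1002 and 1133 and the WT hearts between 1260 and 1589, while WT C lies among the KO hearts for Akt2.

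The promoters of these genes, the pair of the core listed for KO, lie on chromosome 7 of GRCm38.p6 in RefSeq, at chr7:25237802-25238101 on the minus strand for Gsk3a and at chr7:27591302-27591601 on the plus strand for the first start of Akt2. Capitals mark the GC box and the CCAAT box as above, on either strand.
Gsk3a: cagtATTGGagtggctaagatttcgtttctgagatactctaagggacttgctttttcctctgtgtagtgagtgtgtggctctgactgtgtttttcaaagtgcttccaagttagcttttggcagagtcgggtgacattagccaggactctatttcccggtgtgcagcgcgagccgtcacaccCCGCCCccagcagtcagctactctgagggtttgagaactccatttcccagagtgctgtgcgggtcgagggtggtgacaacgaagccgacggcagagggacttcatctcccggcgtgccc
Akt2: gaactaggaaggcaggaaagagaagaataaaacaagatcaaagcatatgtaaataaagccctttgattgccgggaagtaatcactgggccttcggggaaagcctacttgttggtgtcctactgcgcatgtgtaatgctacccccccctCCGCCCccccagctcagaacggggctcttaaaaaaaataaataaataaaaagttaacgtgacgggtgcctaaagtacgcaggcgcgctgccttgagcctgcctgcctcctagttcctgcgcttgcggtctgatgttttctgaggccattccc
Both held 1 GC box, at -69 in Gsk3a and at -102 in Akt2, which 35.7% of all promoters hold. Of the 9 matched genes, 8 held it in at least 1 window. Akt1 was searched over 2 windows and Akt2 over 4, so a count of genes and a share of promoters are unlike measures. Gsk3a also held 1 CCAAT box, at -246, which 37.4% of all promoters hold. The GC content of the Gsk3a promoter, 54.3%, was near the median of all promoters, 52.7%, whereas that of the Irs1 promoter was 71.3%.

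The experiments share no hearts, and the folds of the listed pair are given side by side. Gsk3a was at -0.37 ± 0.09 on the log2 scale (standard error) for KO over WT and at -0.12 ± 0.07 for AAV-CTRP9 over AAV-Luc. Akt2 was at -0.28 ± 0.11 for KO over WT and at 0.04 ± 0.08 for AAV-CTRP9 over AAV-Luc. Whether the experiments differ was not tested, since the KO values were selected on the same contrast.

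Of the 91 further symbols of the pathway, 9 were listed for KO, 4 higher and 5 lower. All 9 were among the 80 measured in the AAV table (11.2%), where 8.67% of all its symbols were listed, 3.34% higher and 5.33% lower, so that the share of the pathway was near that of all genes. Tsc2, whose product AKT restrains to release mTORC1, averaged 2026 ± 76.7 normalized counts in KO hearts and 2322 ± 93.4 in WT hearts (log2 fold change -0.20, standard error 0.07). Rps6kb2, an S6 kinase gene, averaged 191 ± 25.9 in KO hearts and 263 ± 45.0 in WT hearts (-0.46, standard error 0.14). Gys1, the muscle glycogen synthase that GSK3 inhibits, averaged 2337 ± 174 in KO hearts and 2664 ± 60.6 in WT hearts (-0.19, standard error 0.08). Ppp2r1a, the scaffold subunit of a phosphatase that acts on AKT, was likewise listed as lower (-0.20), as was the FOXO target Cited2 (-0.29). With the same size factors the median of all listed symbols was -0.23, so Tsc2, Gys1 and Ppp2r1a were no lower than that median. Listed as higher were Ptpn11, a phosphatase recruited by IRS adaptors (0.22), the heart glycolytic enzyme gene Pfkfb2 (0.28), the FOXO family gene Foxo4 (0.21) and the mitophagy gene Bnip3 (0.30). The KO and WT hearts overlapped for Cited2, Pfkfb2, Foxo4 and Bnip3. None of the 9 listed genes had an unadjusted p under 0.05 in the AAV comparison by limma. Among marker genes, 3 cardiomyocyte genes were listed as lower and 1 as higher (Myh6, Actc1, Ttn and Pln), Col1a1 and Acta2 were listed as lower, and 0 of 8 leukocyte markers were listed, and their part in these values was not tested.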

How the data were processed

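Strand-specific libraries were read from one end over 50 bases, and the authors trimmed the reads with FastqCleaner and aligned them to mm10 with bowtie2. How reads were counted, and with which strand setting, was not stated in the sources. For the AAV experiment they deposited log2 CPM per Ensembl transcript, and whole reads were recovered from it (prior count 1, 100.0% of values within 0.01 of a whole number). For KO against WT they deposited read counts per RefSeq transcript, with the mean normalized signal and the RPKM sum from which size factors and library totals were worked back. The deposited log2 fold, p-value and score columns are the authors' own comparisons and were not used, nor were 14 further per-sample columns.

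AAV values were compared with limma 3.58.1 (intensity trend, 13219 symbols, Benjamini-Hochberg adjustment, threshold 0.05), with edgeR 4.0.16 and DESeq2 1.42.0 on recovered reads as alternatives, and single genes also with a 2-sided exact permutation test. CPM per heart is the antilog of the deposited value. KO counts were refitted with edgeR's quasi-likelihood model, as a description. The fits were run on simulated counts only to check the recovery of set log2 fold changes. That simulation held no GC trend and no outlying heart such as Luc_614. The labels name no batch or litter. Positions, lengths and GC content are from GENCODE M21. The 10 genes, the pathway and marker lists, and the named genes (all 10, and of each pathway list the 3 with the smallest limma p and those listed for KO) were chosen with earlier results of these data known.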

Additional observations from a re-analysis of the deposited data

Results flagged for a closer look

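Of 12 groups of 4 hearts examined, those of the 10 genes in AAV-CTRP9 hearts and of Akt2 and Gsk3a in KO hearts, 0 had a highest or lowest heart whose gap to its neighbour exceeded Dixon's critical share of the range for 4 samples. The largest such share was 0.758, for Gsk3a in AAV-CTRP9 hearts. Groups of 3 hearts, among them the AAV-Luc group that holds Luc_614, were not examined in this way.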

How the results depend on the processing

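The number of the 10 genes called in the AAV comparison was 0 with all hearts and 0 to 1 with each heart left out in turn, the 1 being Irs2 without Luc_614. The number of all symbols called, 2 with all hearts, was 0 to 150 with a heart left out, 61 with DESeq2, 81 with edgeR's likelihood ratio test, 1 with library totals as the only scaling, 0 without the intensity trend and 0 with the rows of a symbol summed. Of the further pathway symbols, 0 to 4 were called with a heart left out, and 1 with DESeq2 and with edgeR's likelihood ratio test. Small log2 fold changes turned sign: with library totals Irs1 was at -0.029 and Akt2 at -0.0063, a scaling that moved the median symbol by -0.05; with GC content and length trends removed Irs1 was at -0.0032, Akt1 at 0.011 and Gsk3b at -0.027; and the other Gsk3b row was at -0.14, an alternative chosen after seeing the data. With a heart left out, Irs1 ranged from -0.0039 to 0.048, Akt1 from -0.16 to 0.0043, Akt2 from -0.015 to 0.11 and Foxo1 from -0.084 to 0.0063. Insr, Igf1r, Irs2, Pik3ca and Gsk3a kept their direction under every alternative. The listed counts for KO, 2 and 9, were the same at a mean normalized count of at least 10. With upper quartile factors estimated from the listed symbols, Gsk3a was at -0.22. The cause of these shifts was not tested. No paired analysis was run, since no label ties single hearts of different groups to each other. Some KO and WT library names share a number, but the labels do not say that it marks a pair. With 4 against 3 hearts a single value cannot have a permutation p under 0.0286.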
